A study of Mus musculus with 7 samples.

Results

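CXCR3 and its interferon-induced ligands were followed in arthritic mouse ankles: the chemokine genes Cxcl9 (Entrez 17329), Cxcl10 (15945) and Cxcl11 (56066) and the receptor gene Cxcr3 (12766). The 4 members were taken by Entrez number and symbol out of 27179 genes measured. The ankles came from DBA1 mice in which immunisation with collagen had induced arthritis, a disease of inflamed and eroded joints. In 4 of them a synthetic copy (mimic) of miR-17-5p, a microRNA, had been injected into the joint in a lipoplex (a lipid particle), and in the other 3 an irrelevant microRNA in the same kind of carrier, called miR-control here. Arthritis and lipoplex injection were thus shared by both groups, and no healthy or uninjected ankle was among the samples. Skin was removed, the ankle was frozen and its total RNA was sequenced. The sources used here do not give the age or sex of the mice, the dose or the time after injection. The labels also do not say that each ankle is from its own animal, and the p-values cover no more than the variation among these ankles, which may in part be technical.

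CXCR3 is a G protein-coupled receptor carried by activated T cells of the Th1 and cytotoxic kinds, natural killer cells and plasmacytoid dendritic cells. Its ligands are small secreted proteins induced by interferons: CXCL9 depends chiefly on interferon-gamma, while CXCL10 also answers to type I interferon and, through NF-kB, to TNF. In the inflamed joint they are known as signals that draw CXCR3-bearing lymphocytes into the synovium.

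The sequences of the injected microRNA and of the stretch that matched part of its seed are given first, because the mimic acts by pairing with messenger RNA. In the mature microRNA (RefSeq, GRCm38.p6, chr14:115043684-115043706, plus strand) capitals mark the seed, bases 2 to 8. In the second line capitals mark a 6-base match to that seed.
miR-17-5p: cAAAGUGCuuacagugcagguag
Cxcl9 3′ untranslated match: ttgcttgcttacCACTTTtttttttt
In the longest annotated 3′ untranslated region of each member (GENCODE M21), no match to the 8-base GCACTTTA or the 7-base GCACTTT or CACTTTA was found. Of 20981 genes with such a region, 18.5% held at least 1 of these. The 6-base CACTTT occurred once among the members, at base 1040 of the 2452-base region of Cxcl9, and 36.7% of all regions held it. These regions were 2452 bases long in Cxcl9, 996 in Cxcl10, 1218 in Cxcl11 and 416 in Cxcr3.

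The 3 ligand genes lie side by side on the minus strand of chromosome 5 (mm10), within 42.0 kb. Cxcl9 occupies chr5:92321331-92328079, Cxcl10 chr5:92346638-92348889 and Cxcl11 chr5:92359544-92363296, each with 4 exons. Cxcr3 lies apart, on the minus strand at chrX:101731536-101734147, with 2 exons. GENCODE M21 lists Cxcl11 as a polymorphic pseudogene, since this annotation follows the C57BL/6J reference strain, and the other members as protein-coding. Reads were assigned to Cxcl11 in every ankle.

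The sequences upstream of Cxcl9 and Cxcl10 are shown because these genes had the largest and the smallest log2 difference between the groups among the ligands. RefSeq (GRCm38.p6) held a promoter entry for Cxcl9, Cxcl10 and Cxcr3. The 250 bases before the annotated start are printed for Cxcl9 (chr5:92328080-92328329) and Cxcl10 (chr5:92348890-92349139), both on the minus strand and 5′ to 3′.
Cxcl9: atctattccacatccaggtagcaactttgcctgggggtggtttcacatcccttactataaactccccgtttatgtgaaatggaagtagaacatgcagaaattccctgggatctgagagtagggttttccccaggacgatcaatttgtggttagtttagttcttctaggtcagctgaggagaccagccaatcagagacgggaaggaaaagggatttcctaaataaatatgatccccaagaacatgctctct
Cxcl10: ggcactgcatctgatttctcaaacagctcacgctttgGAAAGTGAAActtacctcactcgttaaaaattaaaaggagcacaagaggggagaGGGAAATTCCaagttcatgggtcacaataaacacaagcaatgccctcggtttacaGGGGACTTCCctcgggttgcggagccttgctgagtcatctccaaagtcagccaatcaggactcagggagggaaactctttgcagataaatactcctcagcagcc
Capitals mark matches to 4 strings searched on both strands, from 250 bases before to 50 after the start: the core of the interferon-stimulated response element (GAAA and GAAA with 2 bases between them), TTCNNNGAA, a STAT site of the gamma-activated kind, and forms of the NF-kB site with GGG and TTTCC 2 bases apart or GGG and TTCC 3 bases apart. Cxcl10 held the interferon element core from base -213 to -204 and the NF-kB form with TTCC from -159 to -150 and from -104 to -95, counted from the start of transcription. Among 32851 promoters of that length, 3.44% held the interferon element core, 8.30% TTCNNNGAA, 1.63% the NF-kB form with TTTCC and 5.56% that with TTCC. The letters of these 4 strings were not in the window of Cxcl9 or Cxcr3, which says nothing of other forms of the sites or of the factors.

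Values are FPKM, fragment counts scaled to gene length and library depth. Each library held between 27465276 and 31118975 assigned reads, and 1 read in a gene of 1 kb was worth 0.0321 to 0.0364 FPKM. Markers of the ankle's tissues were present in every library, among them Prg4, the joint lubricant, at 859 to 1611 FPKM. All 4 members passed the filter of a mean of at least 1 FPKM that 13418 genes passed. Differences are mimic minus miR-control in log2(FPKM + 0.5), tested with limma over all those genes, which understates the change of low genes. With Benjamini-Hochberg adjustment at 0.05, 0% of the tested genes (0 of 13418) passed in either direction, and the median log2 difference over all of them was -0.0063. At an unadjusted p under 0.05, limma found 2356 of them (17.6%). In 15.3% of the tested genes the 2 groups did not overlap (6.48% higher and 8.84% lower with the mimic), and 48.3% had a higher mean log2 value with the mimic. Erythroid genes had a higher mean with the mimic in 6 of 6 (median log2 difference 1.17), and the medians were -0.030 for macrophage, 0.084 for endothelial, -0.12 for synovial fibroblast and 0.40 for other ankle tissue markers. Leaving out miR-control replicate 2 gave 318 genes past the adjusted threshold, and leaving out any other library gave 0.

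Cxcl9, the ligand most tied to interferon-gamma, had the largest log2 difference of the 4 members, and its groups did not overlap. It stood at 20.6, 4.08, 15 and 4.54 FPKM in mimic replicates 1, 2, 4 and 5, against 2.40, 2.79 and 2.39 FPKM in miR-control replicates 2, 3 and 5. Every mimic ankle was above every miR-control ankle; replicates 1 and 4 stood far above the other two mimic ankles, while the miR-control ankles lay close together. The means were 11.1 ± 8.11 FPKM with the mimic (SD, n = 4) and 2.53 ± 0.231 FPKM with miR-control (SD, n = 3), a ratio of 4.37. The log2 difference was 1.63 (SE 0.55, 95% interval 0.34 to 2.91), and it did not pass the adjusted threshold (limma adjusted p = 0.219), standing at place 1204 by p among 13418 genes. An exact 2-sided permutation test of the difference between the group means over all 35 arrangements gave p = 0.0857, where the smallest possible value was 0.0286. The spread itself was unequal, with a highest-to-lowest ratio of 5.04 in mimic ankles and 1.17 in miR-control ankles. Counting error was small beside this, with 369 to 1813 reads in mimic ankles and 206 to 223 in miR-control ankles.

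**Figure D1:**
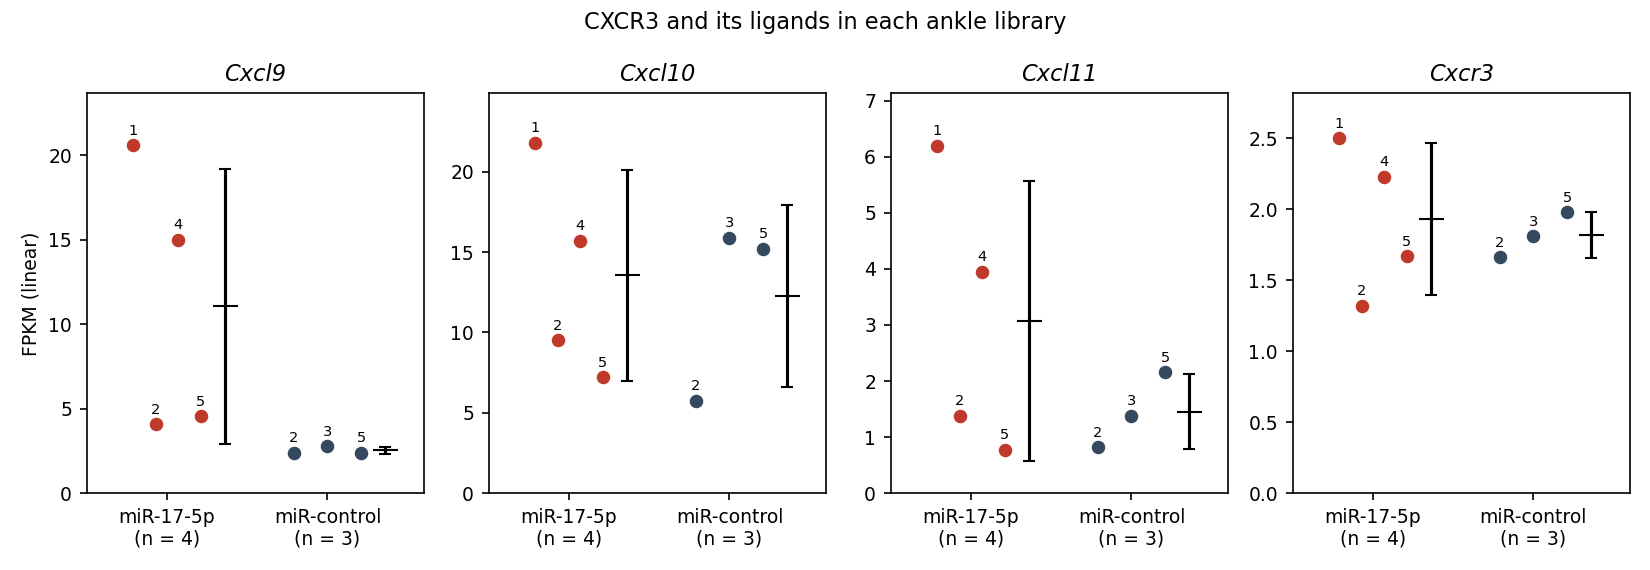
FPKM of Cxcl9, Cxcl10, Cxcl11 and Cxcr3 in each library, with a point per ankle and the group mean with its SD, mimic (n = 4) left of miR-control (n = 3). Cxcl9 is the member whose groups do not overlap, with mimic ankles from 4.08 to 20.6 FPKM and miR-control ankles from 2.39 to 2.79 FPKM.

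Cxcl10, the ligand induced most broadly, by either kind of interferon and by TNF, did not separate the groups. It stood at 21.8, 9.51, 15.7 and 7.22 FPKM in mimic replicates 1, 2, 4 and 5, against 5.75, 15.9 and 15.2 FPKM in miR-control replicates 2, 3 and 5. Mimic replicate 1 was the highest library and miR-control replicate 2 the lowest, and the others were interleaved. The means were 13.6 ± 6.57 FPKM with the mimic (SD, n = 4) and 12.3 ± 5.65 FPKM with miR-control (SD, n = 3). The log2 difference was 0.14 (SE 0.46, 95% interval -0.93 to 1.22), with a limma adjusted p of 0.883 and an exact permutation p of 0.829. Its sign rested on single libraries: it was -0.12 without mimic replicate 1 and -0.31 without miR-control replicate 2.

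Cxcl11, the least abundant ligand and the one with the highest affinity for CXCR3, had a higher mean with the mimic but overlapping groups. It stood at 6.20, 1.38, 3.95 and 0.772 FPKM in mimic replicates 1, 2, 4 and 5, against 0.823, 1.38 and 2.16 FPKM in miR-control replicates 2, 3 and 5. Mimic replicates 1 and 4 were again the highest of all libraries, and mimic replicate 5 was the lowest. The means were 3.08 ± 2.5 FPKM with the mimic (SD, n = 4) and 1.46 ± 0.673 FPKM with miR-control (SD, n = 3). The log2 difference of 0.63 (SE 0.58, 95% interval -0.72 to 1.98) did not pass (limma adjusted p = 0.576, exact permutation p = 0.457). It lay between 0.23, without mimic replicate 1, and 1.03, without mimic replicate 5. Reads numbered 36 to 302 in mimic ankles and 39 to 107 in miR-control ankles, so the value of 0.772 FPKM had an exact Poisson 95% interval of 0.541 to 1.07, which covers counting error only.

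Cxcr3, the receptor, was low in both groups, which overlapped. It stood at 2.5, 1.32, 2.23 and 1.67 FPKM in mimic replicates 1, 2, 4 and 5, against 1.66, 1.81 and 1.98 FPKM in miR-control replicates 2, 3 and 5. The mimic ankles held both the highest and the lowest library. The means were 1.93 ± 0.534 FPKM with the mimic (SD, n = 4) and 1.82 ± 0.157 FPKM with miR-control (SD, n = 3). The log2 difference was 0.043 (SE 0.18, limma adjusted p = 0.914, exact permutation p = 0.829), with a 95% interval of -0.38 to 0.46. It turned to -0.067 without mimic replicate 1, -0.022 without mimic replicate 4 and -0.0053 without miR-control replicate 2. In whole ankles, fewer cells of a type and less RNA per cell cannot be told apart.

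Among the ligands the order of levels was the same in all 7 libraries, Cxcl10 above Cxcl9 above Cxcl11. In mimic replicates 1 and 4 the first pair were close, with 21.8 FPKM of Cxcl10 beside 20.6 of Cxcl9 and 15.7 beside 15. Cxcl11 exceeded Cxcr3 in 3 of 4 mimic ankles and in 1 of 3 miR-control ankles, so these neighbours in the order did not differ beyond their spread. The 3 ligands together summed to 48.6, 15, 34.7 and 12.5 FPKM in mimic replicates 1, 2, 4 and 5, against 8.98, 20.1 and 19.7 FPKM in miR-control replicates 2, 3 and 5. Cxcl9 made up 42.3, 27.3, 43.3 and 36.2% of that sum in the mimic ankles, against 26.8, 13.9 and 12.1% in the miR-control ankles. The groups did not overlap in this share, though mimic replicate 2 and miR-control replicate 2 were close. Cxcl10 made up 44.9 to 63.5% in mimic ankles and 64.1 to 79.2% in miR-control ankles. Cxcl11 made up 6.16 to 12.8% in mimic ankles and 6.90 to 11% in miR-control ankles.

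The balance between the ligands was tested as a ratio within each library, which sets aside what raises or lowers them together. In all, 12 log2 ratios were tested by exact 2-sided permutation and adjusted over the 12. The log2 ratio of Cxcl9 to Cxcl11 was 1.65, 1.28, 1.80 and 1.99 in mimic replicates 1, 2, 4 and 5, against 1.13, 0.81 and 0.12 in miR-control replicates 2, 3 and 5. Every mimic ankle was higher, a difference of 1.00 with the smallest exact p the design allows, 0.0286, which became 0.137 after adjustment. Mimic replicate 2 and miR-control replicate 2 were close, at 1.28 and 1.13 with the pseudocount of 0.5. Before it was added, Cxcl9 and Cxcl11 made up 27.3 and 9.22% of the ligand sum in the first, 26.8 and 9.17% in the second. Cxcl11 had only 69 and 39 reads in these ankles, so their order is not settled. The ratio of Cxcl9 to Cxcr3 also did not overlap, with a difference of 1.58 (exact p = 0.0571, adjusted 0.137). The ratio of Cxcl9 to Cxcl10 averaged -0.47 in mimic ankles and -1.95 in miR-control ankles, a difference of 1.48 with overlapping groups (exact p = 0.0857, adjusted 0.171). The ratios among Cxcl10, Cxcl11 and Cxcr3 overlapped, with differences of -0.49 for Cxcl10 to Cxcl11, 0.10 for Cxcl10 to Cxcr3 and 0.59 for Cxcl11 to Cxcr3 (exact permutation, adjusted p 0.343, 0.842 and 0.411). Leaving out mimic replicate 1 turned the ratio of Cxcl10 to Cxcr3 to -0.050, and leaving out miR-control replicate 2 turned it to -0.30.

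**Figure D2:**
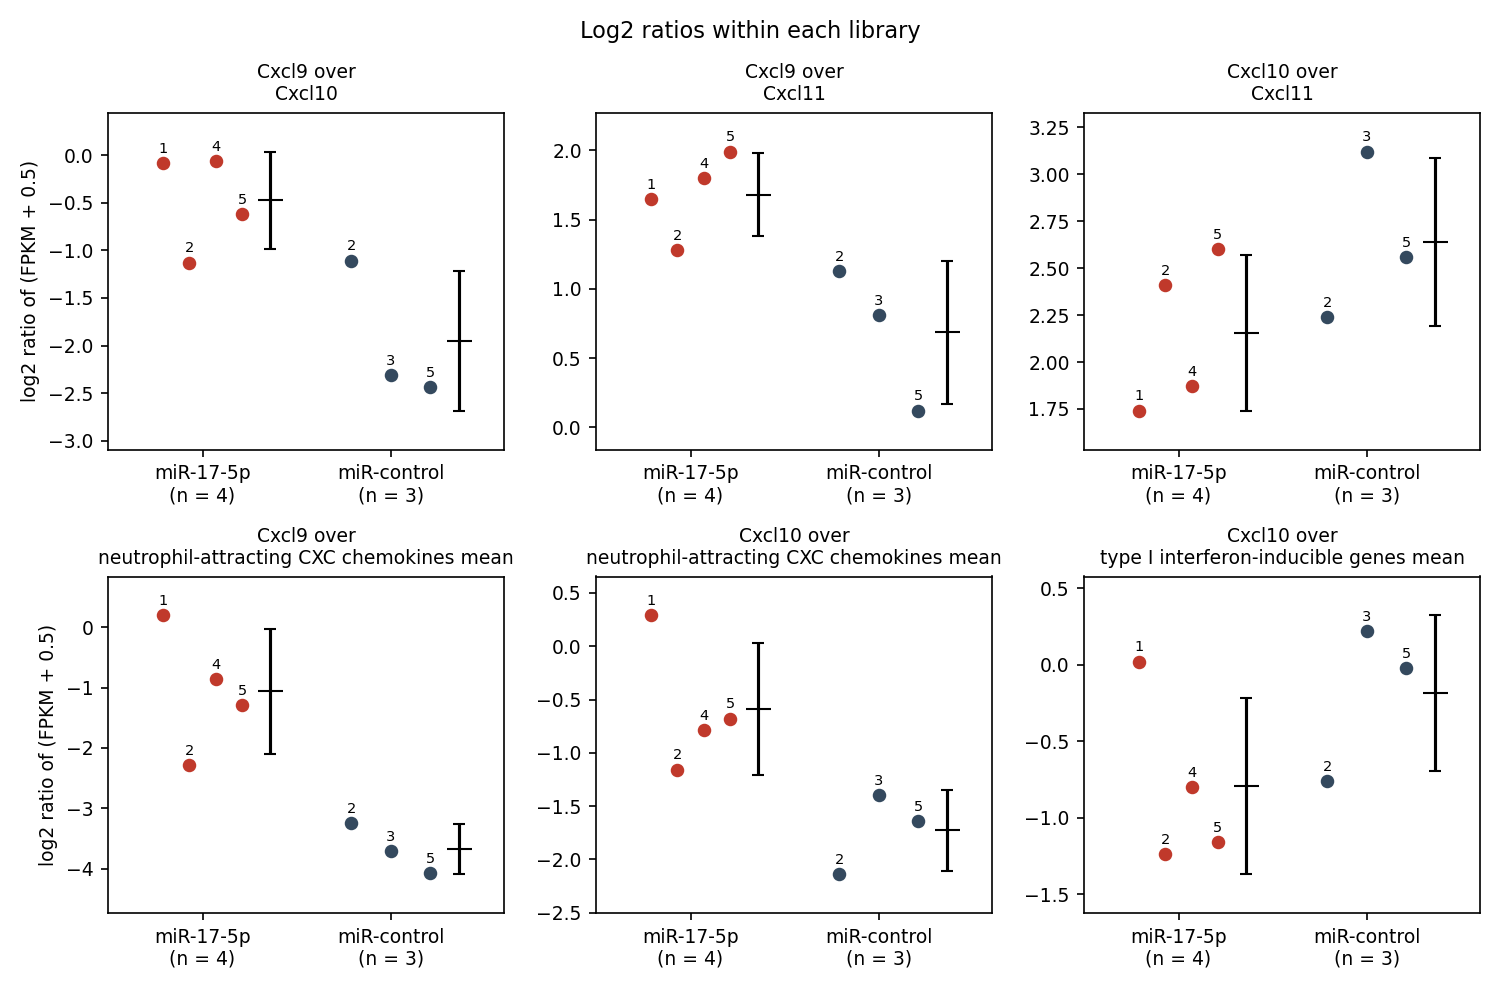
Log2 ratios within each library, between ligands (top) and of Cxcl9 or Cxcl10 to the mean of a gene list (bottom), with a point per ankle (replicate number above it) and the group mean with its SD, mimic (n = 4) left of miR-control (n = 3). The ratio of Cxcl9 to Cxcl11 lies from 1.28 to 1.99 in mimic ankles and from 0.12 to 1.13 in miR-control ankles.

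Within the mimic group the same pair of ankles was highest for each member. Relative to the miR-control mean on the log2 scale, mimic replicates 1, 2, 4 and 5 stood at 2.80, 0.60, 2.36 and 0.74 for Cxcl9. The values were 0.93, -0.23, 0.47 and -0.60 for Cxcl10, and 1.83, 0.00, 1.24 and -0.56 for Cxcl11. For Cxcr3 they were 0.37, -0.35, 0.24 and -0.09. Mimic replicates 1 and 4 were therefore the 2 highest mimic ankles for all 4 members, an order singled out after the values were seen and held by 31.1% of all genes tested (4174 of 13418). It was held by 10 of 14 interferon-gamma-inducible genes, 8 of 24 type I interferon-inducible genes, 7 of 8 Th1 and cytotoxic lymphocyte genes and 2 of 7 T cell genes. It was also held by 10 of 12 neutrophil markers and by 0 of 12 skeletal muscle markers. Over 16817 genes, mimic replicates 1 and 4 were also the most alike pair of all libraries in their reads (chi-square 16.7 per gene). Mimic replicates 2 and 5 came next (20.0), so the division of the mimic ankles was not particular to the members.

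Markers of skeletal muscle, a tissue around the joint, were instead highest in mimic replicates 5 and 2. The mean of 12 muscle genes stood, relative to the miR-control mean, at 0.11, 1.64, 0.87 and 1.86 in mimic replicates 1, 2, 4 and 5, against 1.28, 0.21 and -1.49 in miR-control replicates 2, 3 and 5. The summed level of that list was 3024 to 11216 FPKM in mimic ankles and 1268 to 7583 FPKM in miR-control ankles, and none of its genes was at 0. All 12 genes had a higher mean with the mimic (median log2 difference 1.06), with overlapping groups, and in none was the unadjusted limma p under 0.05. When the mean of the muscle list entered the fit, the log2 difference was 2.11 for Cxcl9, 0.78 for Cxcl10 and 1.40 for Cxcl11 (limma adjusted p 0.308, 0.421 and 0.339). With the T cell list mean in its place it was 2.11, 0.56 and 1.20 for the same genes. The part of muscle content in the members' values was not tested beyond these fits.

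**Figure D3:**
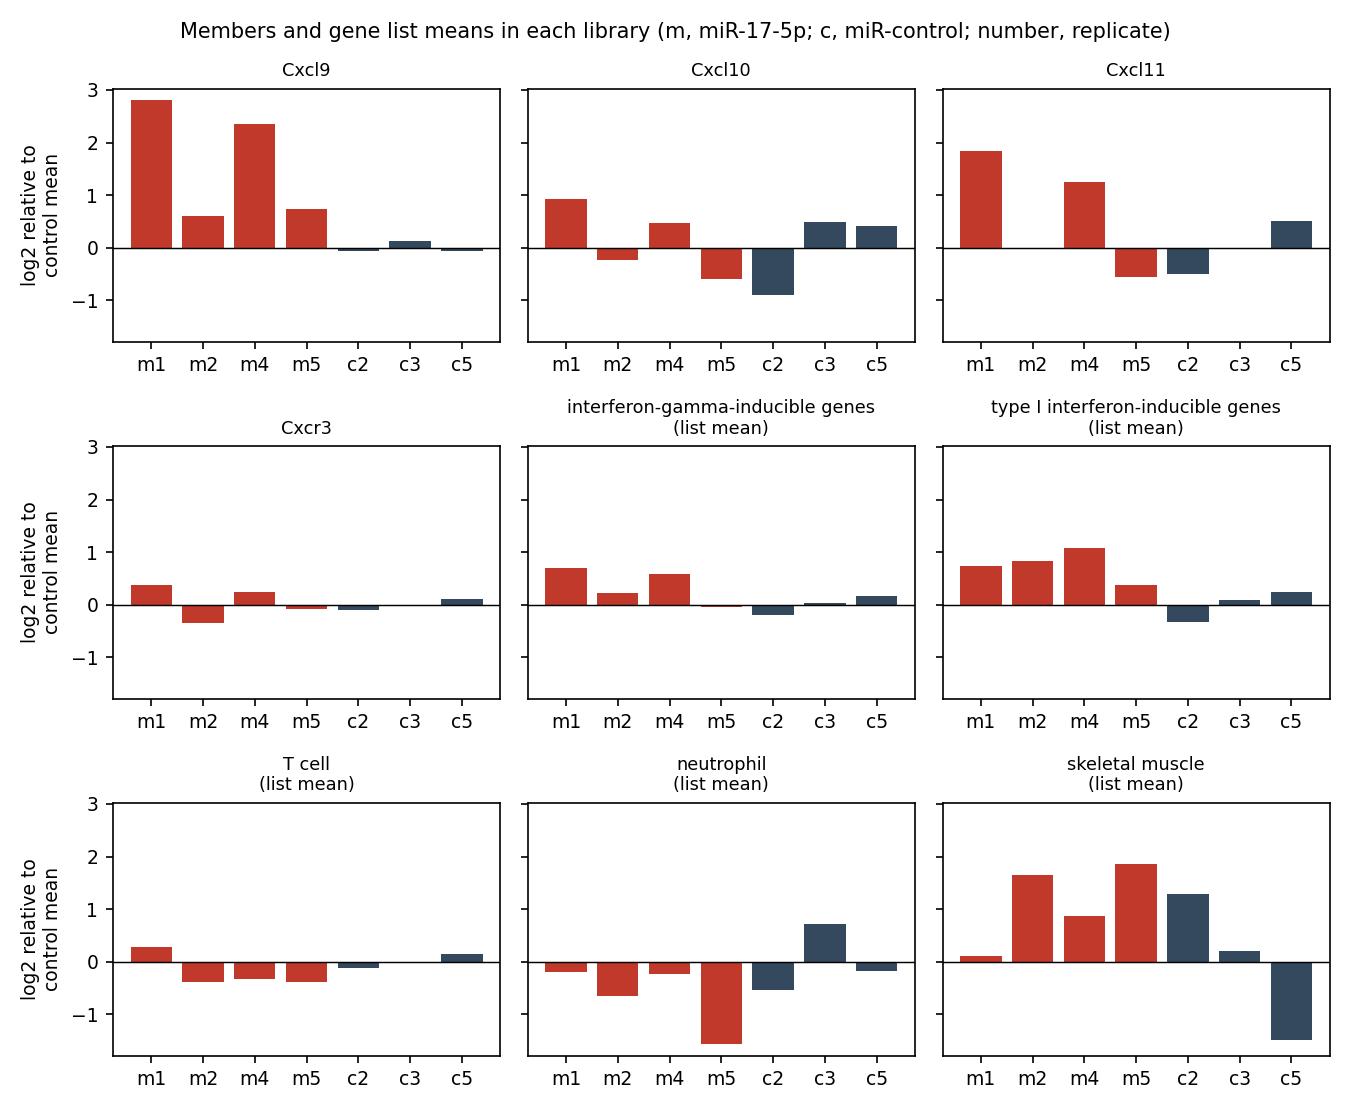
Log2 level relative to the miR-control mean in each library, for the 4 members and for the means of 5 gene lists, mimic libraries left of miR-control libraries. Mimic replicates 1 and 4 are the highest mimic ankles for each member, with Cxcl9 at 2.80 and 2.36, while the muscle list is highest in mimic replicates 5 and 2.

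Upstream of the ligands, few or no reads were assigned to the interferon genes Ifng and Ifnb1. Ifng, which encodes interferon-gamma, had 5, 2, 0 and 4 reads in mimic replicates 1, 2, 4 and 5, against 0, 1 and 4 in miR-control replicates 2, 3 and 5, too few to compare. Ifnb1, a type I interferon, had no read in any library. Of 11 inducing cytokines 6 were tested, and in none did the adjusted p pass. Il1b, an inflammatory cytokine, had the smallest p of these, with 49.9 ± 14.1 FPKM in mimic ankles and 118 ± 30.4 FPKM in miR-control ankles (SD, n = 4 and 3), a log2 difference of -1.25 (limma adjusted p = 0.174). Ebi3, a subunit shared by interleukins of the IL-12 family, had a log2 difference of -0.17, and Il12a, another subunit of that family, one of 0.22.

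Among 16 interferon receptors and transducers, 7 had a higher and 9 a lower mean with the mimic, with a median log2 difference of -0.057. None passed the adjusted threshold, and 4 were higher and 5 lower at an unadjusted p under 0.05, where 7.48% and 10.1% of all tested genes were. The interferon-gamma receptor genes Ifngr1 and Ifngr2, named after their values were seen, had log2 differences of -0.24 and -0.29 (limma adjusted p 0.270 and 0.186). The type I receptor genes Ifnar1 and Ifnar2, named in the same way, had -0.27 and -0.17 (limma adjusted p 0.217 and 0.384). Of these, Ifngr2 and Ifnar1 did not overlap between the groups. In the whole list 4 genes were higher and 3 lower without overlap, where 6.48% and 8.84% of all tested genes were. Stat2 and Irf9, transcription factors of the type I interferon response, had log2 differences of 0.63 and 0.48 with groups that did not overlap (limma adjusted p = 0.174 for both). Irf7, the interferon regulatory factor that amplifies type I interferon, averaged 105 ± 44.0 FPKM in mimic ankles and 40.7 ± 9.61 FPKM in miR-control ankles (limma adjusted p = 0.176, n = 4 and 3). Irf1, a transcription factor that interferon-gamma induces, overlapped between the groups, with 27.2 ± 5.34 FPKM in mimic ankles and 23.9 ± 3.56 FPKM in miR-control ankles (limma adjusted p = 0.590, n = 4 and 3).

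Of 7 feedback inhibitors, 1 had a higher and 6 a lower mean with the mimic (median log2 difference -0.26), and none passed. Socs3, which restrains signalling through STAT3, had a log2 difference of -0.99, and Nfkbia, the inhibitor of NF-kB, one of -0.40. Usp18, which restrains the type I interferon receptor, was the exception at 0.94 (limma adjusted p = 0.174 for each of these). Without miR-control replicate 2, Socs3 passed at -1.30 (limma adjusted p = 0.0219).

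The members were set beside other genes that interferons induce. These lists share genes with those above: Usp18 and Irf7 stand in the type I list too, Irf1 and Socs1 in the interferon-gamma list. All 24 type I interferon-inducible genes had a higher mean with the mimic, with a median log2 difference of 0.81. In 15 of them the groups did not overlap, where 6.48% of all tested genes did not overlap in that direction, but none passed the adjusted threshold. Ifit3, an antiviral protein of this list, stood at 71.2, 83.9, 84.9 and 43.3 FPKM in mimic replicates 1, 2, 4 and 5, against 22.5, 28.8 and 26.4 FPKM in miR-control replicates 2, 3 and 5. Its high mimic ankles were 2 and 4 as well as 1, unlike those of Cxcl9. Xaf1, a proapoptotic interferon-induced gene, and Ifit2 had log2 differences of 0.96 and 0.81 (limma adjusted p = 0.173 for both).

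Of 14 tested interferon-gamma-inducible genes, 10 had a higher and 4 a lower mean with the mimic, with a median log2 difference of 0.39. In 4 the groups did not overlap, all higher with the mimic, where 6.48% of all tested genes did not overlap in that direction. None passed. Those with the smallest p were the GTPases Irgm2 at a log2 difference of 0.87, Gbp4 at 1.04 and Igtp at 0.94 (limma adjusted p from 0.173 to 0.176). Ubd, a ubiquitin-like modifier chosen after its values were seen, stood at 12.2, 6.38, 10.1 and 3.20 FPKM in mimic replicates 1, 2, 4 and 5, against 2.53, 2.45 and 3.36 FPKM in miR-control replicates 2, 3 and 5. Gbp2, chosen in the same way, stood at 43.1, 24.4, 38.9 and 17.2 FPKM in the mimic ankles, against 12.6, 17.7 and 15.5 FPKM in the miR-control ankles. In both genes mimic replicates 1 and 4 were highest, as in the members, and replicate 5 lay within the miR-control range. Against the mean of the type I list, the log2 ratio differed by 0.87 for Cxcl9, -0.61 for Cxcl10 and -0.12 for Cxcl11, all with overlapping groups (exact permutation p 0.257, 0.200 and 0.914).

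Of 8 genes listed for binding or processing of the ligands, 2 had a higher and 6 a lower mean with the mimic, and none passed. The list also holds the chemokine gene Pf4, with a log2 difference of -0.19 and overlapping groups. Dpp4, a protease that trims the ligands' amino ends, averaged 2.35 ± 0.508 FPKM in mimic ankles and 2.03 ± 0.173 FPKM in miR-control ankles (limma adjusted p = 0.613, n = 4 and 3). Ackr3, the scavenging receptor that takes up CXCL11, averaged 29.3 ± 4.66 FPKM in mimic ankles and 44.0 ± 17 FPKM in miR-control ankles, with overlapping groups (limma adjusted p = 0.301, n = 4 and 3). Mmp9, a matrix protease that can cleave ligands of this group, stood at 341 ± 21.9 FPKM in mimic ankles and 475 ± 21.6 FPKM in miR-control ankles, and Sdc4, a heparan sulfate proteoglycan, at 53.6 ± 4.25 against 80.9 ± 9.03 FPKM (limma adjusted p = 0.173 for both, n = 4 and 3). These last 2, both lower, did not overlap between the groups, where 8.84% of all tested genes did not overlap in that direction. Sdc4 passed without miR-control replicate 2 (log2 difference -0.67, limma adjusted p = 0.0335).

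Of 10 genes that carry the signal of CXCR3, as of other chemokine receptors, 1 had a higher and 9 a lower mean with the mimic (median log2 difference -0.21), and none passed. Rac2, a GTPase of migrating leukocytes, had a log2 difference of -0.48. Grk2, the kinase that desensitises such receptors, had one of -0.30, and Pik3cg, a lipid kinase of leukocytes, one of -0.42 (limma adjusted p 0.174, 0.203 and 0.246). Rac2 passed without miR-control replicate 2, at -0.58 (limma adjusted p = 0.0464). Neutrophils also express these genes, and the summed level of 12 neutrophil markers was 1376 to 3541 FPKM in mimic ankles and 3213 to 6567 FPKM in miR-control ankles, with all 12 at a lower mean with the mimic. Its part in these differences was not tested.

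Markers of the cells that carry CXCR3 were low. All 7 tested T cell genes of 11 had a lower mean with the mimic (median log2 difference -0.17), and in none was the unadjusted limma p under 0.05. Their list summed to 17.7 to 29.1 FPKM in mimic ankles and 21.7 to 26.8 FPKM in miR-control ankles. Cd3e, a chain of the T cell receptor complex, stood at 1.79, 0.895, 0.736 and 0.647 FPKM in mimic replicates 1, 2, 4 and 5, against 1.18, 1.32 and 1.42 FPKM in miR-control replicates 2, 3 and 5. Mimic replicate 4, which was high for Cxcl9, was thus low for Cd3e. It lay within the miR-control range for Cd4 (9.72 FPKM against 6.66 to 10.6) and Lck (2.42 FPKM against 2.06 to 3.11). Those were the 2 of 7 tested T cell genes in which mimic replicates 1 and 4 were the highest mimic ankles. Cd3d, another chain of the T cell receptor complex, had a log2 difference of -0.53, and Cd5, a T cell surface protein, one of -0.17 (limma adjusted p 0.361 and 0.566).

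Of 17 Th1 and cytotoxic lymphocyte genes 8 were tested, of which 2 had a higher and 6 a lower mean with the mimic. Klrk1, an activating receptor of natural killer and cytotoxic T cells, had a log2 difference of 0.46, Xcl1, a chemokine of the same cells, one of 0.23, and Stat4, which transmits interleukin-12, one of -0.17 (limma adjusted p 0.386, 0.529 and 0.503). Tbx21, the transcription factor of Th1 cells that induces Cxcr3, was below the filter, with means of 0.421 FPKM in mimic ankles and 0.307 FPKM in miR-control ankles. The plasmacytoid dendritic cell genes Siglech, Pacsin1 and Spib had log2 differences of 0.13, 0.21 and 0.24 (limma adjusted p 0.755, 0.602 and 0.746). Other lymphocyte chemokine receptors also overlapped, with log2 differences of 0.52 for Ccr7, -0.32 for Cxcr4 and -0.51 for Cxcr6 (limma adjusted p 0.331, 0.385 and 0.396). Without miR-control replicate 2, Cxcr6 passed at -0.91 (limma adjusted p = 0.0464).

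The CXCR3 ligands were also set beside other chemokine genes. Of the 5 CXC chemokines that attract neutrophils through CXCR2, 4 had a lower mean with the mimic (median log2 difference -1.09), and they summed to 119 to 229 FPKM in mimic ankles and 284 to 517 FPKM in miR-control ankles. Cxcl5 stood at 68.5, 81.3, 94.1 and 75.5 FPKM in mimic replicates 1, 2, 4 and 5, against 145, 212 and 327 FPKM in miR-control replicates 2, 3 and 5, a log2 difference of -1.44 (limma adjusted p = 0.173). It passed without miR-control replicate 2, at -1.72 (limma adjusted p = 0.0302). Cxcl1 and Cxcl3 had log2 differences of -1.60 and -1.09 (limma adjusted p 0.174 and 0.209). Against the mean of these 5 genes within each library, the log2 ratio was higher with the mimic by 2.62 for Cxcl9, 1.1 for Cxcl10 and 1.62 for Cxcl11. None of these 3 ratios overlapped between the groups (exact permutation p = 0.0571 each, 0.137 after adjustment over the 12 ratios). The list was chosen with earlier results of these data known, and 4 of its 5 genes had a lower mean with the mimic. Each ratio thus mixes the ligand's own difference with that of the list. Cxcl10 itself differed by 0.14, with overlapping groups.

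Of 4 other CXC chemokine genes, all with a lower mean with the mimic, Cxcl13, Cxcl14 and Cxcl16, which encode attractants of lymphocytes and myeloid cells, had log2 differences of -0.25, -0.41 and -0.22, with overlapping groups (limma adjusted p 0.673, 0.268 and 0.604). The 13 tested CC chemokines divided into 7 with a higher and 6 with a lower mean (median log2 difference 0.028), and none passed. That median was -0.33 when genes averaging under 5 FPKM were left out. Ccl2, the main monocyte attractant, averaged 38.0 ± 6.71 FPKM in mimic ankles and 128 ± 60.1 FPKM in miR-control ankles, a log2 difference of -1.61 (limma adjusted p = 0.174, n = 4 and 3), and passed without miR-control replicate 2 at -2.09 (limma adjusted p = 0.0219). Ccl20, the ligand of CCR6, had a log2 difference of -2.01, and Ccl21a, a ligand of CCR7 in lymphatic vessels and lymph nodes, one of 0.43 (limma adjusted p = 0.174 for both).

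**Figure D4:**
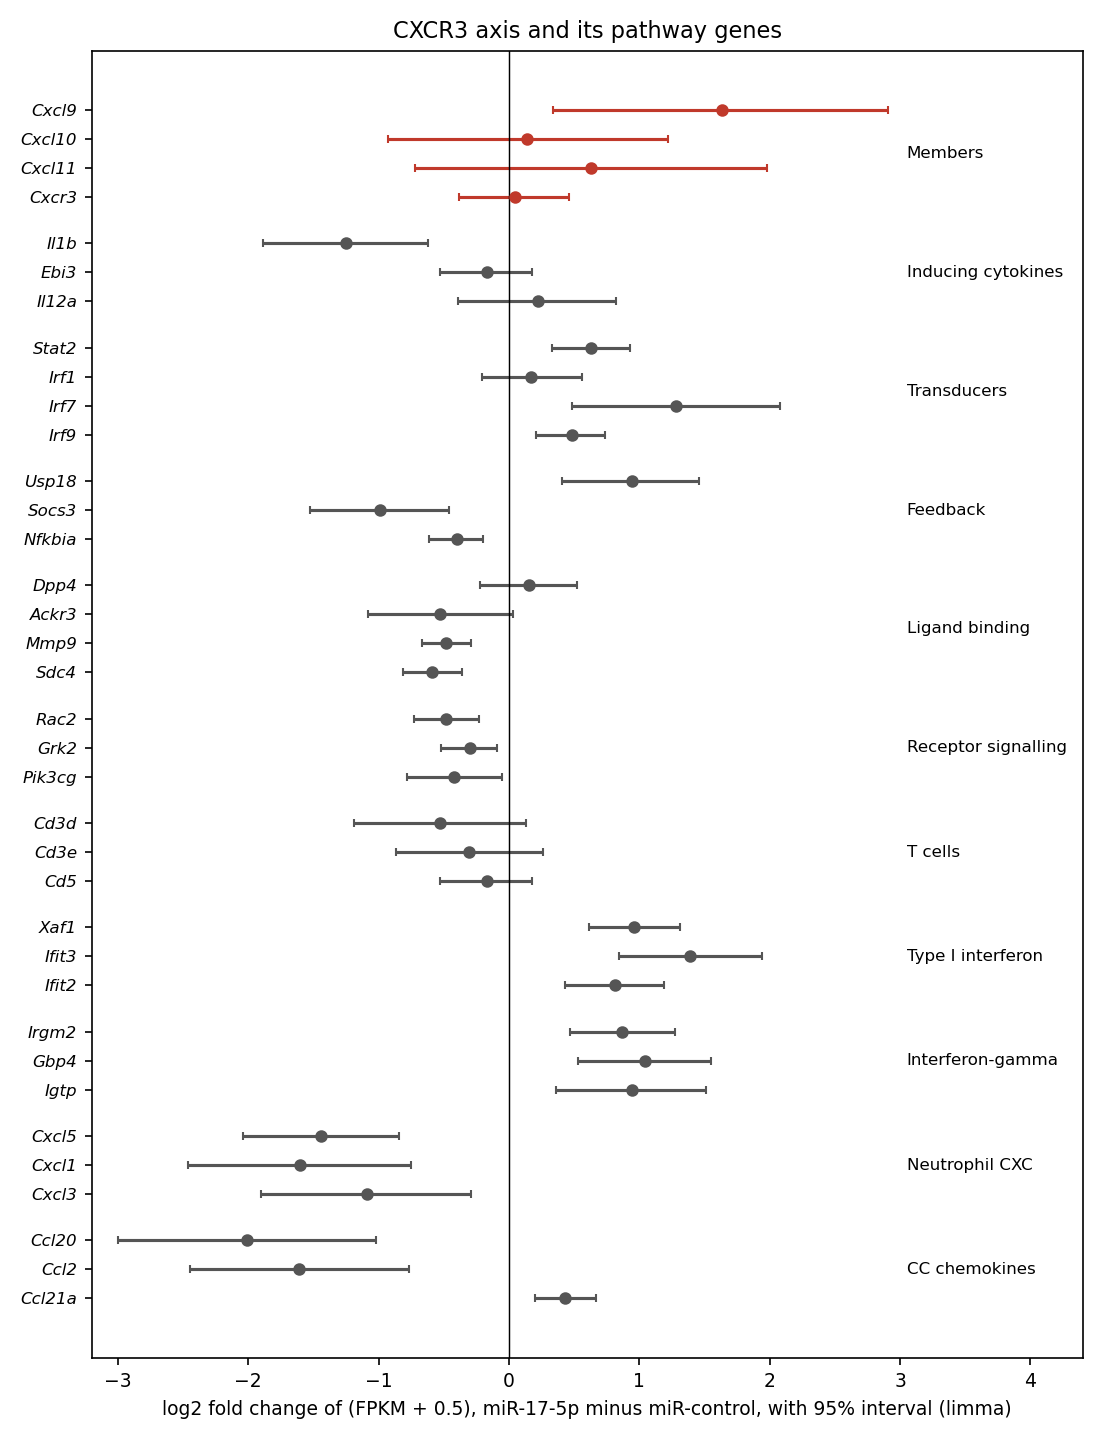
Log2 difference, mimic minus miR-control, with its 95% interval from limma for the 4 members and for named genes of the pathway, grouped by role. Cxcl9 lies at 1.63 with an interval above 0, and the intervals of Cxcl10, Cxcl11 and Cxcr3 include 0. The interferon receptor genes, which had a lower mean with the mimic, are not drawn.

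The genes whose pattern over the 7 libraries was most like that of a member are named as a description, since all values share the same libraries. For Cxcl9 these were Gbp9, an interferon-inducible GTPase, with a Pearson r of 0.991, Pafah2 (0.991), Snx22 (0.980), Poglut3 (0.975) and Rbak (0.972). For Cxcl10 they were Bnc2 (0.989), Manea (0.981), Nectin3 (0.973), Serpina3f (0.971) and Notum (0.966). For Cxcl11 they were Rab9 (0.996), the activating Fc receptor Fcgr4 (0.983), the inhibitory leukocyte receptor Lair1 (0.983), Rab7b (0.982) and Irf1 (0.976). For Cxcr3 they were Pld4 (0.976), Olfml2b (0.975), Lacc1 (0.974), Dctn5 (0.971) and Srek1 (0.970). Among the members, r over the same 7 libraries was 0.860 between Cxcl10 and Cxcl11, 0.840 between Cxcl9 and Cxcl11 and 0.571 between Cxcl9 and Cxcl10. With Cxcr3, r was 0.697 for Cxcl9, 0.741 for Cxcl10 and 0.834 for Cxcl11.

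Beside the members on the chromosome, the neighbouring genes were also compared. Art3, a plus-strand gene at chr5:92331841-92414628 that encodes an ADP-ribosyltransferase-like protein, spans Cxcl10 and Cxcl11 and shares 0 exon bases with them. It stood at 17.4, 21.3, 23.8 and 23.0 FPKM in mimic replicates 1, 2, 4 and 5, against 16.2, 16.2 and 9.02 FPKM in miR-control replicates 2, 3 and 5. The groups did not overlap, with a log2 difference of 0.65 (limma adjusted p = 0.215), and mimic replicate 1, the highest for every member, was the lowest mimic ankle. Sdad1, next to Cxcl9, had a log2 difference of -0.30, and Nup54, beyond Cxcl11, one of -0.14 (limma adjusted p 0.202 and 0.312). Ogt, next to Cxcr3, had one of 0.13 (limma adjusted p = 0.369). The sources used here do not say whether counting used strand. Intronic reads of Art3 inside the exons of Cxcl10 or Cxcl11 cannot be told apart from reads of those genes.

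**Figure D5:**
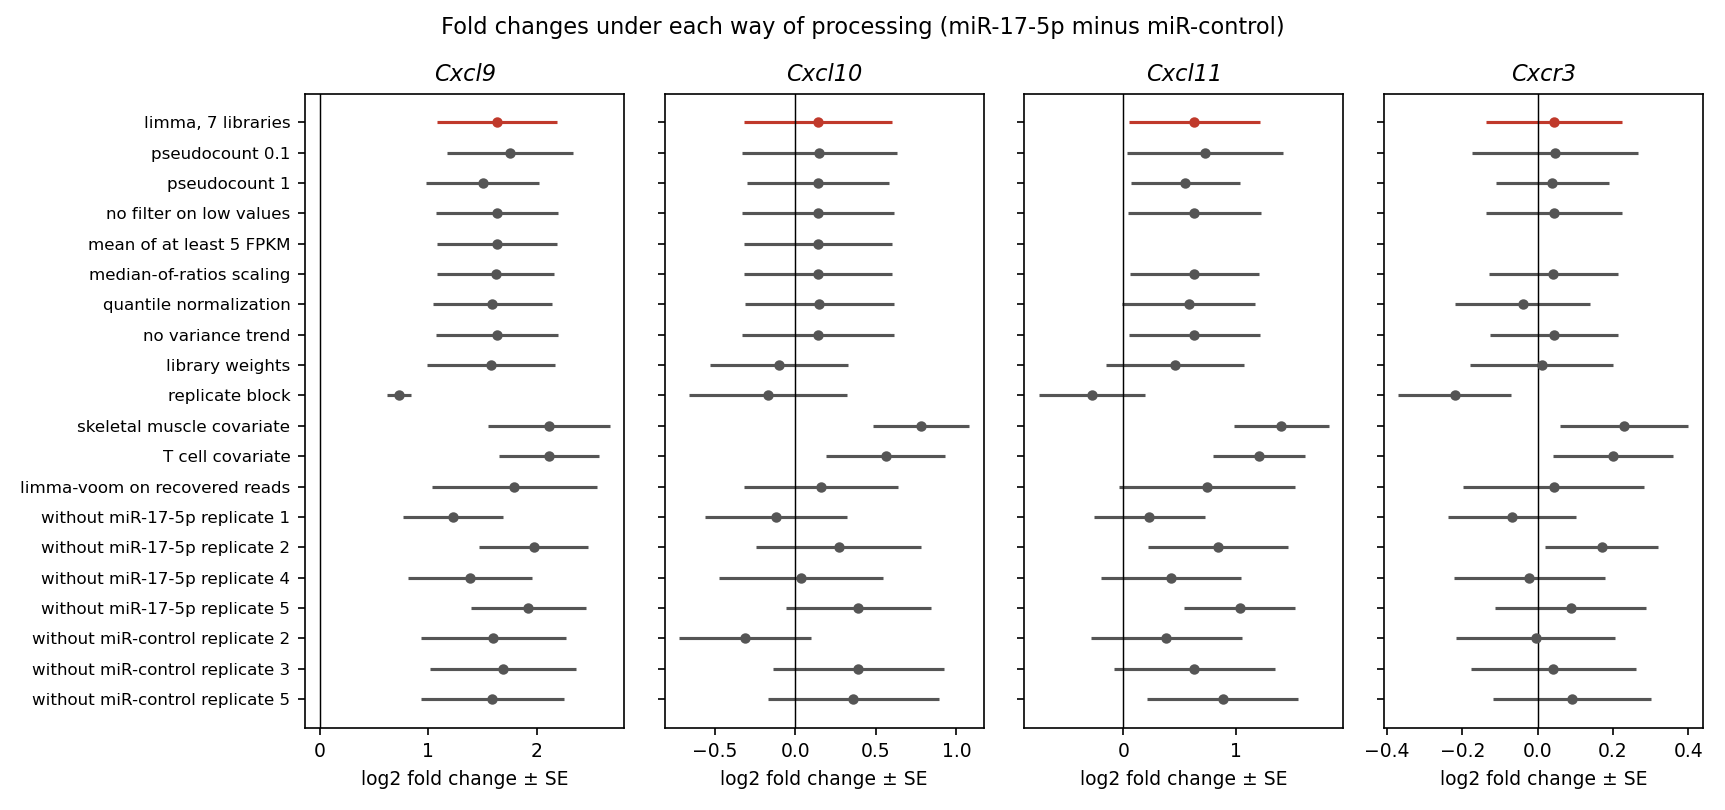
Log2 difference, mimic minus miR-control, of each member under the fit reported and under each alternative, including each library left out. All 19 alternatives keep Cxcl9 above 0, while Cxcl10, Cxcl11 and Cxcr3 fall on both sides of 0.

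Under the 19 alternative fits Cxcl9 kept a higher mean with the mimic, and its limma adjusted p ranged from 0.175 to 0.550. Cxcl10 was higher with the mimic in 15 of 19 alternatives, Cxcl11 in 17 of 18 and Cxcr3 in 13 of 18.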

How the data were processed

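RNA of 7 ankles was sequenced, 4 with the miR-17-5p mimic and 3 with miR-control. The authors deposited FPKM for each gene in each library, beside the gene's exon length, per the file headers. The tools listed in the submitters' processing notes are STAR 2.5.2b, bcl2fastq 2.20, DESeq2 1.14.1, Subread and featureCounts, without their roles; mm10 and GRCm38 are listed as builds. The sources used here do not give the strand setting or annotation release. Entrez numbers matched a RefSeq symbol for 25275 of 27179 genes.

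FPKM multiplied by length gave whole reads for 100% of values (tolerance 0.01 read), and so the reads behind each value. No pair of libraries agreed within sampling noise (chi-square of at least 16.7 per gene), and all 7 were kept as separate replicates. Group was tested in limma 3.58.1 (R 4.3.3, eBayes with a variance trend) on log2(FPKM + 0.5) for the 13418 genes whose mean reached 1 FPKM, 2-sided, with Benjamini-Hochberg adjustment at 0.05, and the test was checked on simulated data. Within-library log2 ratios used the same pseudocount. Single members and ratios were also compared by exact permutation over all 35 arrangements of the libraries; for the members this test was added after the data were seen.

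The members, the 21 gene lists and the tests were chosen with earlier results of these data known. Named genes were the members, up to 3 tested genes of each pathway list with the smallest p, Ifng, Irf1, Tbx21, Cd3e, Dpp4 and Ackr3, the 5 genes most like each member and the chromosomal neighbours; an item that the rule also named is not reported here. Alternatives were pseudocounts of 0.1 and 1, no filter or a mean of at least 5 FPKM, other scalings, no variance trend, library weights, limma-voom on recovered reads, the replicate number as a block, muscle and T cell covariates, and leaving out each library. Figures used Python 3.11.15, pandas 2.3.3 and matplotlib 3.10.9.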

Additional observations from a re-analysis of the deposited data

How the results depend on the processing

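Cxcl9 was higher with the mimic under all 19 alternatives and past the adjusted threshold in none of them. Its log2 difference was 1.23 to 1.97 with 1 library left out. For Cxcl10 it reversed to -0.100 with library weights, and ranged from -0.31 to 0.39 with 1 library left out. Cxcl11 ranged from 0.23 to 1.03 and Cxcr3 from -0.067 to 0.17 with 1 library left out, and quantile normalization gave -0.040 for Cxcr3. Cxcl11 and Cxcr3 had no value at a mean of at least 5 FPKM. With the replicate number as a block, which rests on numbers 2 and 5 alone, the log2 difference was 0.73 for Cxcl9, -0.17 for Cxcl10, -0.28 for Cxcl11 and -0.22 for Cxcr3, and it reversed to -0.064 for Xcl1 and -0.040 for Irf1. The block called 0 genes, as did the fit without it. The deviations of same-numbered ankles had r = 0.535 for number 2 and -0.435 for number 5. The labels do not say what the number stands for, and whether it marks a shared factor was not tested. With the block the median log2 difference was 0.020 for interferon-gamma-inducible genes, -0.44 for T cell genes, -0.49 for other CXC and -0.34 for CC chemokines.

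The number of genes past the threshold was 1 with no filter (the small RNA Scarna2, chosen after its value was seen) and 0 to 318 with 1 library left out, the 318 without miR-control replicate 2. Without that library Socs3, Sdc4, Rac2, Cxcr6, Cxcl5 and Ccl2 passed, all lower with the mimic (limma adjusted p 0.0219 to 0.0464). They were among 318 of 13418 tested genes that did. In its reads that library differed less from mimic replicates 2, 4 and 5 (chi-square 22.6, 33.1 and 31.9 per gene) than from mimic replicate 1 (53.5). From miR-control replicates 3 and 5 it differed by 50.8 and 82.1. Leaving it out thus removed the miR-control ankle nearest to mimic replicates 2 and 5. Mimic replicate 4 was about as near to miR-control replicate 3 (32.3). The ratio of Cxcl10 to Cxcr3 ranged from -0.30 to 0.34 with 1 library left out, and that of Cxcl11 to the type I list from -0.53 to 0.15. The muscle covariate reversed Ebi3 to 0.048, Pacsin1 to -0.052, Siglech to -0.072, Cxcl16 to 0.075 and Cxcl13 to 0.14, and the T cell covariate reversed Cxcl13 to 0.059. With 1 library left out, Ebi3 ranged from -0.31 to 0.0019, Pacsin1 from -0.045 to 0.34 and Siglech from -0.13 to 0.27, each reversed without miR-control replicate 5, and Spib from -0.091, without mimic replicate 5, to 0.49. The muscle covariate also moved the median of the inducing cytokines to 0.14, of the other lymphocyte chemokine receptors to 0.0013 and of the other CXC chemokines to -0.011. The cause of these changes was not tested. Depth limits Ifng, Ifnb1 and Tbx21, and touches Cxcl11 and Cxcr3 (66 to 122 reads in mimic and 79 to 98 in miR-control ankles for Cxcr3).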
